A study of Homo sapiens with 30 samples.

Results

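The genes described here detect double-stranded RNA, relay that signal or encode the interferons it calls for, and their nascent transcription was followed in A549 cells, an established line of human lung adenocarcinoma. The 10 genes are IFIH1, DHX58, EIF2AK2, ADAR, TLR3, ZBP1, MAVS, TBK1, IFNB1 and IFNL1. They were taken by gene name from a count table of 58780 genes, and each name matched 1 row. The list of names was chosen with earlier results of these data known. The assay, PRO-seq (precision run-on sequencing), maps polymerases that are engaged on DNA, so its counts reflect ongoing transcription more than stored mRNA.

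The 30 libraries form 15 groups of 2 replicates, and all cells, the untreated ones included, were in 0.01% DMSO. Cells received 100 nM dexamethasone (Dex), which activates the glucocorticoid receptor, 1 µM GSK591, which blocks PRMT5, the main enzyme of symmetric arginine dimethylation, or 1 µM MS023, which blocks the Type I enzymes that dimethylate arginine asymmetrically. The groups were untreated cells, Dex for 15 min, Dex for 3 h, Dex with GSK591 for 3 h, Dex with MS023 for 3 h, each inhibitor alone for 2, 4 or 7 days, and each inhibitor for 7 days with Dex for 15 min or 3 h. The untreated cells are labelled as a 15 min control, so no vehicle control of 2, 4 or 7 days enters these comparisons. The labels do not say that replicates came from separate cultures, so p-values measure the spread between these samples, which may be technical.

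Double-stranded RNA in a cell is taken as a sign of viral infection or of the cell's own repeat transcripts. The helicase IFIH1 (MDA5) and the endosomal receptor TLR3 bind it, DHX58 (LGP2) modulates the helicase sensors, and ZBP1 binds left-handed nucleic acid and can start necroptosis. Signals from the helicases pass through the mitochondrial adaptor MAVS to the kinase TBK1, which activates factors that switch on interferon genes such as IFNB1 and IFNL1. EIF2AK2 (PKR) stops translation when it binds double-stranded RNA, and ADAR deaminates adenosines in it and so makes it a poorer ligand. Interferon in turn raises the transcription of many of these sensors through a promoter element, the interferon-stimulated response element (ISRE).

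The members' promoters differ in such elements. RefSeq windows of 300 bases, from 250 before to 50 after the start (GRCh38.p14), matched 8 of the 10 genes. DHX58 and ZBP1 had no window and were not searched. The 4 motifs searched on both strands were the ISRE as GAAANNGAAA, the STAT-binding GAS element as TTCNNNGAA, the NF-kB element as GGGAANTTCC and the glucocorticoid response element as GNACANNNTGTNC. Of 35116 promoters of this length, 3.57% held the ISRE, 7.66% the GAS element, 0.439% the NF-kB element and 0.39% the glucocorticoid element. The GAS pattern is its own reverse complement, so each match counts once. The windows of 4 members are printed below on the gene's strand, with motif matches in capitals, because the helicase sensor IFIH1 and TLR3 passed the test in MS023-treated cells, EIF2AK2 carries the same element without passing it, and IFNB1 is the ligand of the pathway.
IFIH1 (chr2:162318635-162318934, minus strand): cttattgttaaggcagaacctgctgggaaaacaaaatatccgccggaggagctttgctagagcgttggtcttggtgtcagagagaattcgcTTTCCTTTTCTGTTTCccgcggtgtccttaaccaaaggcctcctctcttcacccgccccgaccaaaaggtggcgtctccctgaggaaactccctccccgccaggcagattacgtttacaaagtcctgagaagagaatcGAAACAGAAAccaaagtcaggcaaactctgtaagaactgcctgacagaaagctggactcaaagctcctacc
EIF2AK2 (chr2:37156931-37157230, minus strand): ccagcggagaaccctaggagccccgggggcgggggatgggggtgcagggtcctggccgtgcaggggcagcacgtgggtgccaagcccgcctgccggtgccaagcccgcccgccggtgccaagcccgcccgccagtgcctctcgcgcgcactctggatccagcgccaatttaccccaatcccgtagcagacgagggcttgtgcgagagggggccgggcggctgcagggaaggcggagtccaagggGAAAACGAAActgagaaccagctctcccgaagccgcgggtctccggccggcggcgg
TLR3 (chr4:186068906-186069205, plus strand): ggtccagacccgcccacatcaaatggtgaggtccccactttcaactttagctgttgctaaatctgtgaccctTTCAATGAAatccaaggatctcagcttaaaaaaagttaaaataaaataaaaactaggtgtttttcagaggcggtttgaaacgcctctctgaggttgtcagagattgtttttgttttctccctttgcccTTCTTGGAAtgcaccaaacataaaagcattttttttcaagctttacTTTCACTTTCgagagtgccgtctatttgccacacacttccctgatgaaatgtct
IFNB1 (chr9:21077893-21078192, minus strand): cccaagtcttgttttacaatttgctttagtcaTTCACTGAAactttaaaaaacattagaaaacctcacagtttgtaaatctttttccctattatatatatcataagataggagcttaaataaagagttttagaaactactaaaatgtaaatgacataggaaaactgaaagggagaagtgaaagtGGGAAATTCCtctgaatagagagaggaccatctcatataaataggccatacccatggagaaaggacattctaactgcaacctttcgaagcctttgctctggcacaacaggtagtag

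The IFIH1 window held 3 ISRE matches, of which 2 overlapped each other and began 159 and 153 bases before the start on the reverse strand, and 1 began 21 bases before it. EIF2AK2 held 1 ISRE match that began 6 bases before the start and ran across it. TLR3 held 1 ISRE match, which began 4 bases before the start, and 2 GAS matches. IFNB1 held 1 GAS match and 1 NF-kB match that began 66 bases before the start. The IFNL1 window held 2 overlapping ISRE matches. No match to these 4 patterns was found in the windows of ADAR, MAVS and TBK1, and no member's window matched the glucocorticoid element. A match is a run of letters and does not show that a factor binds there.

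Total counts ran from 8441211 to 13069598 per library, and mitochondrial genes took 58.7% to 78.7% of them. Nuclear protein-coding genes had 1439258 to 2772773 counts. The epithelial and A549 markers KRT8, KRT18, EPCAM, CDH1, AKR1C1, AKR1B10 and NQO1 summed to 601 to 1081 CPM (counts scaled to library size by TMM) and all 7 were above 0 in every library. EPCAM ran only from 0.957 to 6.19 CPM and CDH1 from 1.00 to 6.65 CPM. These ranges overlap those of CD14, given below, and of the fibroblast marker COL1A1, 2.41 to 8.24 CPM. Leukocyte markers summed to 1.02 to 6.02 CPM with PTPRC at 0 in 13 libraries and CD3E at 0 in 21. CD14, which monocytes carry, was at 0 in none and ran from 0.613 to 5.82 CPM. Endothelial markers summed to 0.208 to 2.24 CPM and fibroblast markers to 3.32 to 10.1 CPM.

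Replicate 2 stood apart from replicate 1 in Dex with MS023 for 3 h, where the replicates correlated at r = 0.924 across 11117 genes, and in GSK591 for 7 days with Dex for 15 min, where r was 0.960. In the other 13 groups r was 0.968 to 0.984. A chi-square per degree of freedom between replicates, over 18689 genes with mitochondrial ones included, ranked the groups otherwise. It was 43.5 for GSK591 at 7 days and 26.0 for GSK591 at 7 days with Dex for 3 h. In the groups of the 2 libraries it was 27.0 for Dex with MS023 and 22.3 for the other. The 2 libraries that stand apart by r had the highest EIF2AK2 levels of all 30. All 9 calls of members given below passed without them as well, and the calls that only then passed are given beside their gene. Mitochondrial genes took 71.2% of counts in replicate 1 and 61.0% in replicate 2 of Dex with MS023, and 78.2% and 69.8% in the other group.

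Transcription of the 10 genes in untreated cells spanned from a well-covered adaptor to a ligand with no count. Per kilobase of exon, the mean level was 4.79 CPM for MAVS, 2.49 for ADAR, 1.49 for EIF2AK2, 0.965 for DHX58, 0.773 for TBK1 and 0.34 for IFIH1. It was 0.118 for IFNL1, 0.0158 for TLR3 and 0.0103 for ZBP1, and IFNB1 had no count in either untreated library. Levels per kilobase rest on exonic length, while nascent RNA also lies in introns.

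**Figure D1:**
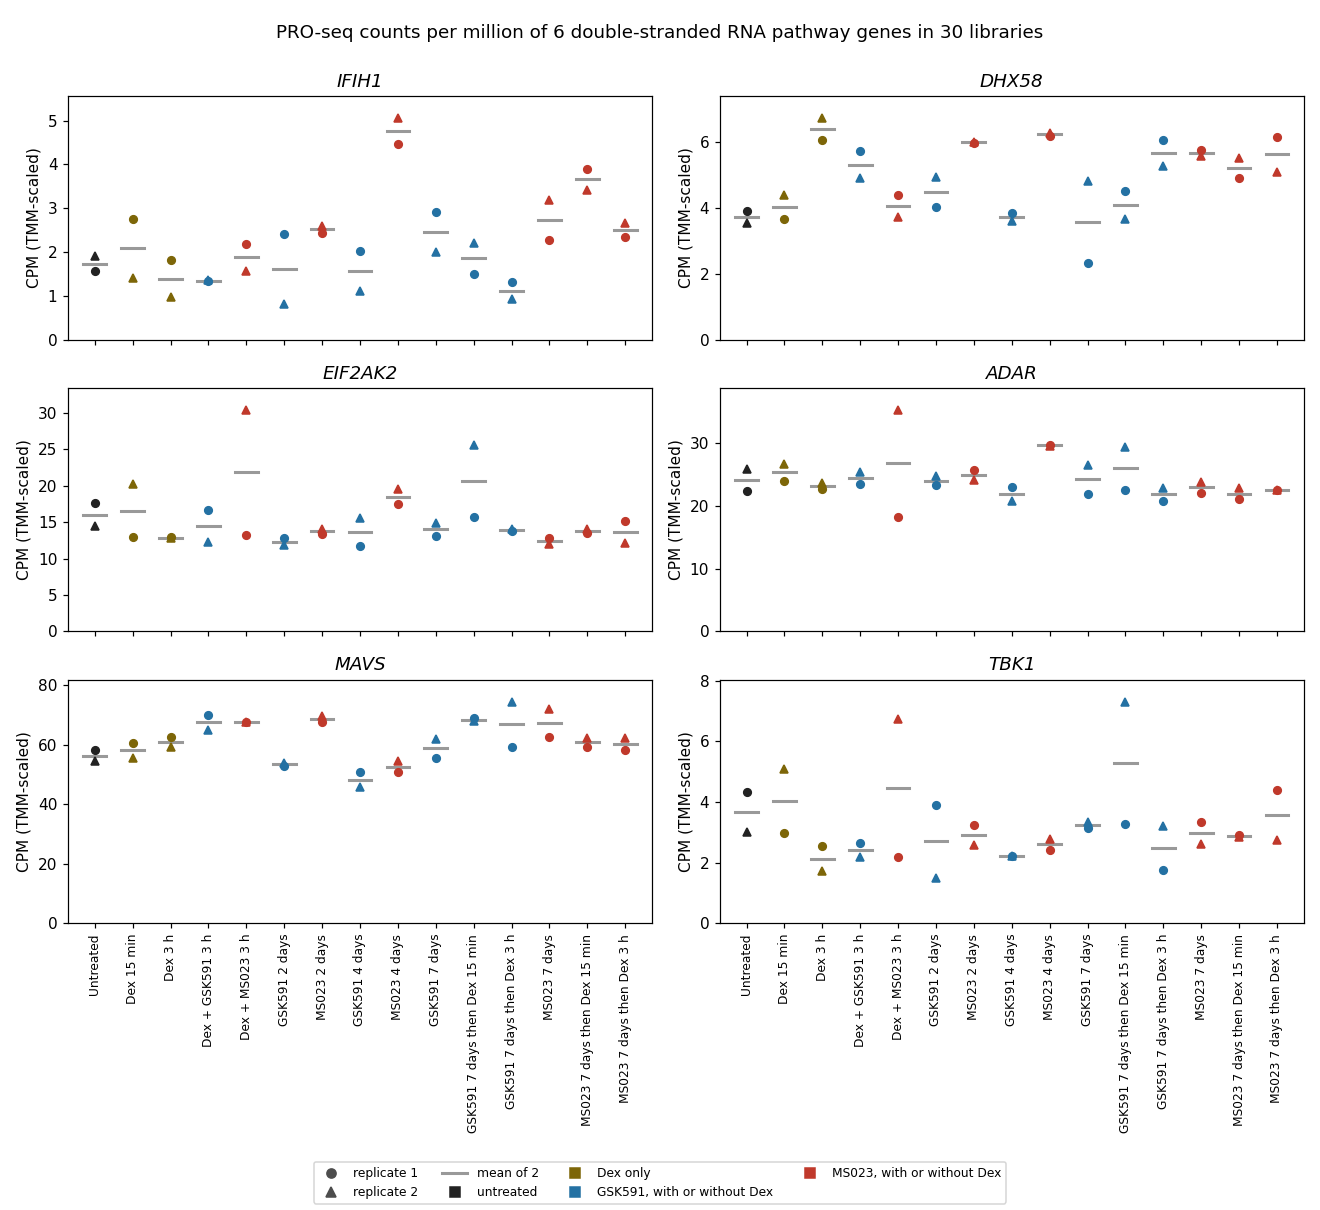
Library-size scaled counts (CPM, TMM, linear axes from 0) of IFIH1, DHX58, EIF2AK2, ADAR, MAVS and TBK1 in each of the 30 libraries, by group, with a circle for replicate 1, a triangle for replicate 2 and a bar for the mean of the 2. IFIH1 is highest in both MS023 4 days libraries (4.48 and 5.06 CPM), and the high EIF2AK2, ADAR and TBK1 values in Dex + MS023 3 h and GSK591 7 days then Dex 15 min come from replicate 2 alone.

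Of the 10 members 7 had enough counts for the test in edgeR (the filterByExpr rule with a minimum count of 10), and 4 of them passed it in at least 1 of 25 comparisons, with 9 calls in all at a Benjamini-Hochberg adjusted p of 0.05 over 22919 genes. ZBP1, IFNB1 and IFNL1 were not tested. TLR3 entered the test only through the few groups in which its counts were high, so its call is a description. After MS023 for 4 days 2 of the 7 members were called, both higher, where 14.2% of all genes tested were called. After MS023 for 7 days 1 was called, higher, against 13.6% of all genes. Dex for 3 h gave 1, higher, against 10.5%, and MS023 for 7 days with Dex for 15 min gave 1, higher, against 17.2%.

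In the remaining 10 comparisons with untreated cells edgeR called none of the 7 members, with 0 to 2 members at an unadjusted p under 0.05, and DESeq2 called none there either. The share of all genes called in these was 1.26% for Dex at 15 min, 11.9% for Dex with GSK591, 12% for Dex with MS023, 5.64%, 17.2% and 13.2% for GSK591 at 2, 4 and 7 days, 10.4% for MS023 at 2 days, 15.5% for GSK591 at 7 days with Dex for 15 min, 26.8% with Dex for 3 h, and 21.9% for MS023 at 7 days with Dex for 3 h. All comparisons with untreated cells share the same 2 control libraries.

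IFIH1 lies at chr2:162267079-162318703 on the minus strand (GRCh38, GENCODE 29) and its exons overlap no other annotated gene. Its level in untreated cells was 1.74 ± 0.25 CPM (SD, n = 2), from 14 and 19 counts. It was 2.51 ± 0.099 CPM after MS023 for 2 days (25 and 28 counts), 4.77 ± 0.41 after 4 days (63 and 71 counts) and 2.73 ± 0.65 after 7 days (32 and 44 counts). Both libraries at 4 days were above every other library of the study, the next highest of which had 3.90 CPM. In bulk libraries such as these, more transcribing cells and more transcription per cell cannot be told apart.

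IFIH1 transcription was 2.72-fold that of untreated cells after 4 days of MS023 (log2 fold change 1.45 ± 0.35 SE, 95% confidence interval 0.75 to 2.14, edgeR adjusted p = 0.00256). At 2 days the log2 fold change was 0.53 ± 0.39 and at 7 days 0.64 ± 0.37, and neither passed (edgeR adjusted p = 0.43 and 0.267). After 7 days of MS023 with Dex for 15 min the level was 3.66 ± 0.35 CPM, from 51 and 41 counts, and the log2 fold change of 1.07 ± 0.36 passed (edgeR adjusted p = 0.0327). The MS023 call at 4 days was lost without untreated replicate 1 (log2 fold change 1.31, adjusted p = 0.0583). The call at 7 days with Dex was lost when any 1 of its 4 libraries was left out, with adjusted p from 0.0611 to 0.205, and by DESeq2 (adjusted p = 0.134).

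GSK591 gave other IFIH1 values. The level was 1.61 ± 1.14 CPM after 2 days, 1.56 ± 0.65 after 4 days and 2.46 ± 0.63 after 7 days, and no comparison with untreated cells passed. At 2 and 4 days 1 library lay above and 1 below both untreated libraries, and at 7 days both lay above them, at 2.91 and 2.01 CPM. The difference between the inhibitors was tested directly. At 4 days IFIH1 was 3.03-fold higher with MS023 than with GSK591 (log2 1.60 ± 0.35, edgeR adjusted p = 0.00179), with 6.03% of all genes and 2 of the 7 members called. This call was lost without GSK591 4 days replicate 2 (log2 1.24, adjusted p = 0.113).

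DHX58 lies at chr17:42101404-42112733 on the minus strand, with no overlapping exon of another gene. Untreated cells had 3.89 and 3.53 CPM, both from 35 counts. After MS023 the libraries had 5.96 and 6.00 CPM (2 days), 6.18 and 6.27 CPM (4 days), and 5.74 and 5.57 CPM (7 days). After GSK591 they had 4.03 and 4.94 CPM (2 days), 3.84 and 3.61 CPM (4 days), and 2.32 and 4.82 CPM (7 days). The MS023 libraries thus lay above both untreated libraries at all 3 times, while the GSK591 libraries at 4 and 7 days overlapped them.

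After 4 days of MS023 DHX58 was 1.68-fold the untreated level (log2 0.75 ± 0.24, edgeR adjusted p = 0.0253). At 2 and 7 days the log2 fold changes of 0.69 ± 0.25 and 0.61 ± 0.24 did not pass (edgeR adjusted p = 0.0601 and 0.0813), and without the 2 libraries that stand apart the value at 2 days passed (adjusted p = 0.0483). Against GSK591 at 4 days DHX58 was 1.67-fold higher with MS023 (log2 0.74 ± 0.23, edgeR adjusted p = 0.0464). Neither call at 4 days passed when 1 of its 4 libraries was left out, with adjusted p from 0.095 to 0.178 against untreated cells and from 0.167 to 0.27 against GSK591. DESeq2 gave adjusted p of 0.103 and 0.218 for them, and with no filter on low counts the difference from GSK591 had 0.0636.

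Dex for 3 h gave the highest DHX58 level of the 15 groups, 6.06 and 6.72 CPM from 57 and 55 counts. It was 1.72-fold the untreated level (log2 0.78 ± 0.25, edgeR adjusted p = 0.0322), while IFIH1 was at 1.81 and 0.977 CPM in the same libraries. Dex with GSK591 gave 5.72 and 4.89 CPM of DHX58, and Dex with MS023 gave 4.37 and 3.72 CPM, which overlapped the untreated libraries. The call did not hold without any 1 of its 4 libraries (adjusted p 0.0776 to 0.208), in DESeq2 (0.127) or with no filter on low counts (0.0625).

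The dependence of DHX58 on both agents was tested as an interaction, the response to Dex after 7 days of inhibitor minus the response without it. With MS023 the response to Dex was -0.01 ± 0.21 on the log2 scale, from 5.74 and 5.57 CPM without Dex to 6.15 and 5.09 with it. The interaction was -0.79 ± 0.33 and had an unadjusted p of 0.0198 but did not pass (edgeR adjusted p = 0.408). With GSK591 the response was 0.69 ± 0.26 and the interaction -0.09 ± 0.37 (edgeR adjusted p = 0.976). Of all genes, 0.223% were called in each interaction, and none of the 7 members.

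**Figure D2:**
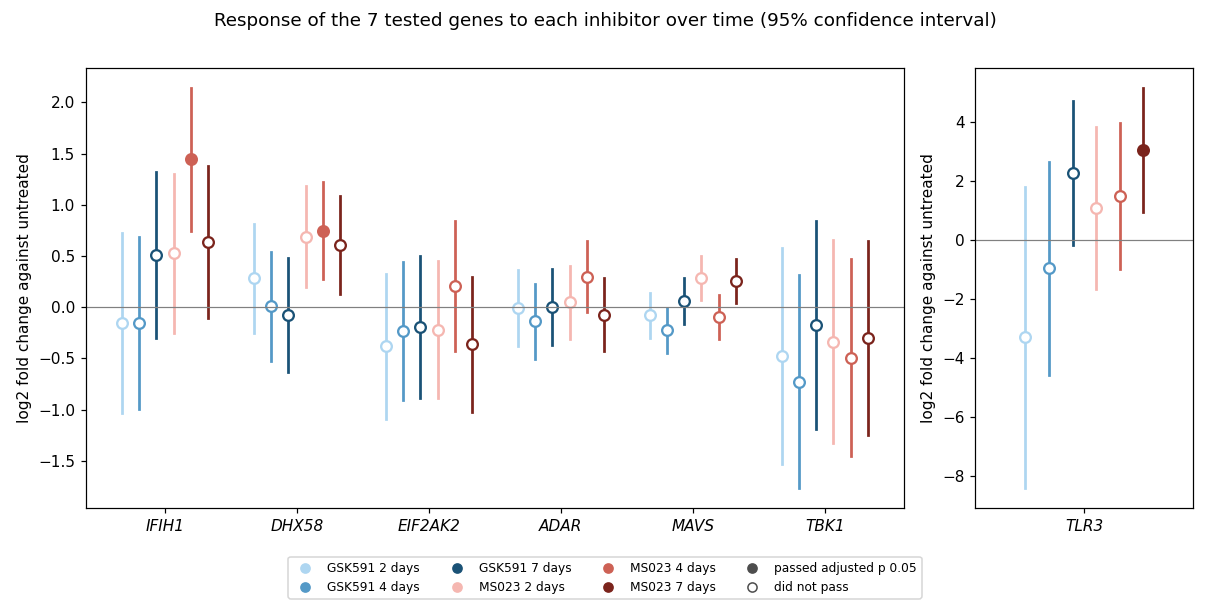
Log2 fold change against untreated cells of the 7 tested members after GSK591 (blue) and MS023 (red) for 2, 4 and 7 days, with the 95% confidence interval as a vertical line, filled circles for values past an adjusted p of 0.05 and open circles for the others. TLR3 has its own axis, and its value for GSK591 at 2 days, where both libraries had 0 counts, depends on the prior count and is no measured fold. The filled circles are IFIH1 (1.45) and DHX58 (0.75) after 4 days of MS023 and TLR3 (3.05) after 7 days.

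EIF2AK2 lies at chr2:37099210-37157065 on the minus strand, and 436 bases of its exons overlap those of 2 genes on the opposite strand (AC007899.1 and GPATCH11). Whether the counting used strand is not given in the sources used here, so reads of these genes may be mixed there. Untreated cells had 17.6 and 14.5 CPM. MS023 libraries had 13.4 and 14.1 CPM (2 days), 17.5 and 19.5 CPM (4 days) and 12.9 and 12.0 CPM (7 days). The 4 days libraries overlapped the untreated range, and the log2 fold change of 0.21 ± 0.30 did not pass (edgeR adjusted p = 0.711).

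The 2 libraries that stand apart held the highest EIF2AK2 values. Dex with MS023 gave 13.2 CPM in replicate 1 and 30.4 in replicate 2, and GSK591 for 7 days with Dex for 15 min gave 15.7 and 25.6 CPM. In the remaining libraries the level ran up to 20.2 CPM. With Dex and MS023 replicate 1 left out, so that replicate 2 stood alone, EIF2AK2, ADAR and TBK1 were called against Dex for 3 h (log2 1.23, 0.59 and 1.63). With both replicates edgeR called none of the 7 members in that comparison, with 3 at an unadjusted p under 0.05 and none called by DESeq2, where 0.196% of all genes were called. Without the 2 libraries that stand apart the log2 differences there were 0.04 for EIF2AK2, -0.35 for ADAR and 0.02 for TBK1, and none passed (adjusted p = 0.987, 0.673 and 0.997). Against untreated cells, Dex with MS023 then turned from 0.46 to -0.28 for EIF2AK2 and from 0.16 to -0.41 for ADAR, again without passing (adjusted p = 0.482 and 0.0943).

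ADAR lies at chr1:154582057-154628013 on the minus strand, with no overlapping exon of another gene. Untreated cells had 22.4 and 25.9 CPM from 201 and 257 counts. After 4 days of MS023 the level was 29.8 and 29.6 CPM from 419 and 416 counts, and no library was higher except replicate 2 of Dex with MS023, at 35.3 CPM. The log2 fold change at 4 days was 0.30 ± 0.17 (95% confidence interval -0.05 to 0.65) and did not pass (edgeR adjusted p = 0.268). All other groups had means between 21.8 and 26.8 CPM.

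Without the 2 libraries that stand apart, which share in the estimate of spread, ADAR passed against GSK591 at 4 days (log2 0.44, adjusted p = 0.00779, against 0.148 with them). ADAR then also fell by 0.37 from 4 to 7 days of MS023 (adjusted p = 0.0155), EIF2AK2 fell by 0.57 (adjusted p = 0.00509) and IFIH1 fell by 0.81 (adjusted p = 0.0465), after a rise of IFIH1 by 0.92 from 2 to 4 days (adjusted p = 0.0451). With all 30 libraries these 3 decreases, and the rise of IFIH1, were of similar size and did not pass (edgeR adjusted p = 0.178, 0.279 and 0.0887, and 0.0851). The 2 libraries were chosen after seeing the data. They held the highest EIF2AK2 values (30.4 and 25.6 CPM), and replicate 2 of Dex with MS023 the highest ADAR value (35.3 CPM). The passes of EIF2AK2 and ADAR without them are thus descriptions. ADAR against GSK591 at 4 days also passed with the compared groups alone (edgeR adjusted p = 0.00463) and with no filter on low counts (0.03). From 4 to 7 days of MS023, EIF2AK2, ADAR and IFIH1 passed with the compared groups alone (edgeR adjusted p = 0.00124, 0.0118 and 0.0175). More of all genes were called there too, and DESeq2 called none of these differences.

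MAVS, at chr20:3846799-3876123 on the plus strand with no overlapping exon, was the best-covered member, with 394 to 995 counts per library. Untreated cells had 58.3 and 54.4 CPM. GSK591 libraries had 53.0 and 53.8 CPM (2 days), 50.7 and 45.6 CPM (4 days, the lowest group), and 55.6 and 62.0 CPM (7 days). MS023 libraries had 67.8 and 69.8 CPM (2 days, the highest group), 50.9 and 54.4 CPM (4 days) and 62.6 and 72.0 CPM (7 days). The 4 days libraries were thus below both the earlier and the later ones.

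In the fit of all 30 libraries MAVS passed in no comparison with untreated cells, where its log2 fold changes ran from -0.23 to 0.29 and the lowest edgeR adjusted p was 0.0681. MS023 at 2 days passed without the 2 libraries that stand apart (log2 0.29, adjusted p = 0.0475) and with the compared groups alone (0.28, adjusted p = 0.0289). Total-count scaling, which raised the median of all genes with MS023, called MAVS in all 6 comparisons of an MS023 group with untreated cells, with 0.96 at 2 days. MAVS also passed for Dex with GSK591 with the compared groups alone (0.28, adjusted p = 0.0324), and for GSK591 at 7 days with Dex for 15 min with DESeq2 size factors (0.32, adjusted p = 0.0341). For GSK591 at 7 days with Dex for 3 h it passed without replicate 1 of that group (0.40, adjusted p = 0.0222). Against GSK591 at 2 days, MS023 passed for MAVS without the 2 libraries that stand apart (0.36, adjusted p = 0.0279). It passed between times of MS023. From 2 to 4 days it fell by 0.39 ± 0.11 on the log2 scale (edgeR adjusted p = 0.0227), with 4.91% of all genes and 1 of the 7 members called. From 4 to 7 days it rose by 0.35 ± 0.11 (edgeR adjusted p = 0.0236), with 9.04% of all genes and 1 member called. Neither call held with no filter on low counts (adjusted p = 0.0953 and 0.0612) or under total-count scaling (0.673 and 0.0529), and leaving out libraries ended the first in all 4 cases (adjusted p 0.0963 to 0.239). The second was lost without either 4 days library (0.208 and 0.0972) and without MS023 7 days replicate 2 (log2 0.25, adjusted p = 0.343).

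TBK1 lies at chr12:64451880-64502108 on the plus strand, and 702 bases of its exons overlap a gene on the opposite strand (AC135279.3). Counts were 13 to 76 per library. Untreated cells had 4.34 and 3.02 CPM, and Dex for 3 h gave the lowest mean, 2.55 and 1.71 CPM. The log2 fold change of -0.76 ± 0.51 did not pass (edgeR adjusted p = 0.416). The highest values were again those of replicate 2 of GSK591 for 7 days with Dex for 15 min, 7.31 CPM against 3.28 in replicate 1, and of Dex with MS023, 6.75 against 2.19 CPM.

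TLR3 lies at chr4:186069152-186088069 on the plus strand, with no overlapping exon of another gene. It had 1 count in each untreated library and 0 to 6 counts in those of Dex or Dex with an inhibitor for 3 h or less. MS023 libraries had 4 and 1 counts (2 days), 4 and 5 (4 days), and 14 and 13 (7 days), and with Dex after 7 days they had 9 and 9 (15 min) and 9 and 2 (3 h). GSK591 gave 0 and 0, 0 and 1, and 6 and 3 counts at 2, 4 and 7 days. With Dex after 7 days of GSK591 there were 0 and 8 counts (15 min) and 1 and 0 (3 h). The library with 8 counts was at 0.77 CPM. The 7 days MS023 libraries had 0.992 and 0.941 CPM, above every other library, and their protein-coding depth was also higher than that of untreated cells (2636465 to 2699769 against 1822516 to 2014121 counts). The part of depth in the raw counts was not tested, and the ratio below is scaled for it.

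From 27 counts against 2, scaled for library size, TLR3 was 9.14-fold the untreated level after 7 days of MS023, with an exact 95% counting interval of 2.30 to 79.3. The interval covers counting error only. The fitted log2 fold change was 3.05 ± 1.05 (edgeR adjusted p = 0.0425), a value that depends on the 2 untreated counts. DESeq2 gave no adjusted p for it. It did not pass when any 1 of the 4 libraries was left out (adjusted p 0.136 to 0.245). GSK591 at 7 days had 9 counts, a ratio of 5.30 (1.10 to 50.4), and no difference in TLR3 passed the test between the inhibitors at 7 days (log2 0.78 ± 0.79, 95% confidence interval -0.81 to 2.38, edgeR adjusted p = 0.633).

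ZBP1, at chr20:57603846-57620576, had 35 counts in all 30 libraries together, at 0 in 15 of them and at most 5 in any. The libraries with 4 or 5 counts were 1 each of MS023 at 4 days, MS023 at 7 days, and MS023 at 7 days with Dex for 15 min. The groups with the largest sums were all MS023 groups, with 7 counts at 4 days and 6 at 7 days against 1 in untreated cells, although MS023 for 2 days had 0 in both libraries. The sums are not scaled for depth. Scaled for library size, the means were 0.249 CPM at 4 days of MS023, 0.216 at 7 days and 0.0556 in untreated cells. The ZBP1 counts are near the 3 counts that a count of 0 allows, and no fold change was taken from them.

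The interferon ligands were at or near 0. IFNB1, at chr9:21077105-21077963 on the minus strand, is a gene of 1 exon and had 0 counts in 28 of 30 libraries. It had 2 counts in replicate 1 of GSK591 for 7 days with Dex for 15 min and 1 in replicate 1 of MS023 for 7 days with Dex for 15 min. A count of 0 allows up to 3 counts, or 0.212 to 0.41 CPM depending on the library, so transcription of IFNB1 was not detectable at this depth in 13 of the 15 groups.

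IFNL1, at chr19:39296325-39298673 on the plus strand, had 55 counts in all, at 0 in 9 libraries and at most 6 in any. The largest sums were 9 counts in MS023 for 7 days with Dex for 15 min (3 and 6), 8 in MS023 for 4 days (6 and 2) and 7 in MS023 for 7 days (5 and 2), against 2 in untreated cells (0 and 2). Dex for 15 min had 2 and 4 counts, and Dex for 3 h and GSK591 for 7 days had 0 in both libraries. The sums are not scaled for depth, which was higher in MS023 at 4 and 7 days than in untreated cells. Scaled for library size, Dex for 15 min was at 0.299 CPM and untreated cells at 0.101. MS023 was at 0.284 CPM at 4 days, 0.249 at 7 days and 0.365 at 7 days with Dex for 15 min. Library values overlapped between most groups, and no fold change was taken.

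**Figure D3:**
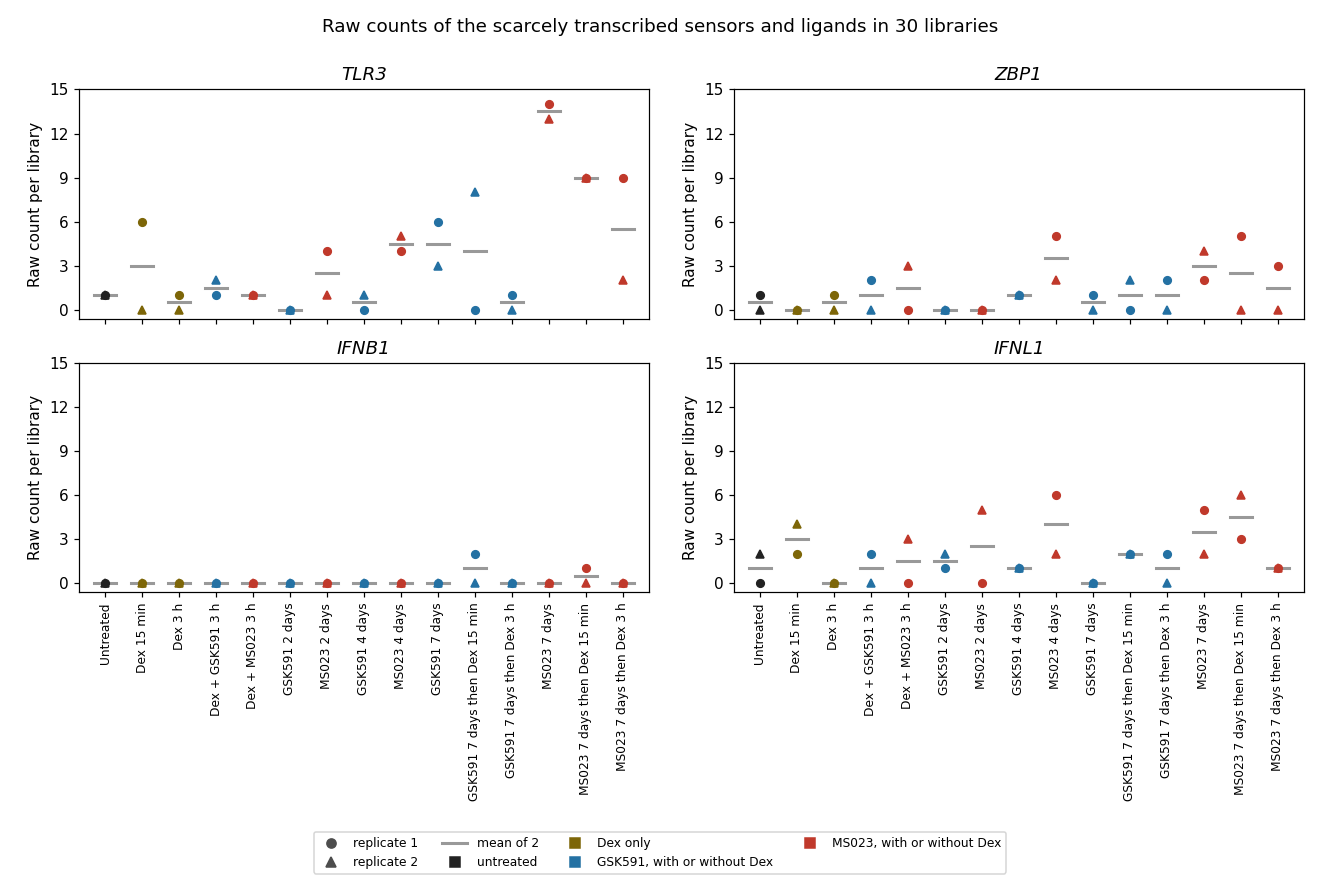
Raw counts per library of TLR3, ZBP1, IFNB1 and IFNL1 in the 15 groups, with a circle for replicate 1, a triangle for replicate 2 and a bar for the mean. TLR3 is highest in MS023 7 days (14 and 13 counts), ZBP1 stays at 5 or fewer, IFNL1 at 6 or fewer, and IFNB1 is at 0 in 28 of 30 libraries.

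Ordered by mean level over the 15 groups, few neighbouring groups were separated. Of 14 neighbouring pairs in the order of each gene, the libraries overlapped in 11 for IFIH1, 13 for DHX58, 14 for EIF2AK2, 14 for ADAR, 11 for MAVS, 14 for TBK1 and 13 for TLR3. These counts are not set against those of all genes, so they show nothing particular to the members. The highest group was MS023 at 4 days for IFIH1 and ADAR, Dex for 3 h for DHX58, MS023 at 2 days for MAVS and MS023 at 7 days for TLR3.

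Other direct comparisons called no member. MS023 against GSK591 called none of the 7 at 2 days and none at 7 days in edgeR or in DESeq2, with 1 at an unadjusted p under 0.05 each time, where 2.69% and 9.38% of all genes were called. Dex for 3 h after 7 days of inhibitor, against the inhibitor alone, called none with GSK591 (9.85% of all genes, 3 members at an unadjusted p under 0.05) and none with MS023 (11.1%, 0 members), and DESeq2 called none in either. After GSK591 for 7 days, IFIH1 was at 2.91 and 2.01 CPM without Dex and at 1.32 and 0.917 CPM with Dex for 3 h (log2 -1.13 ± 0.44, edgeR adjusted p = 0.0992). Dex with GSK591 against Dex called 0% of all genes in edgeR, with 1306 at an unadjusted p under 0.05 and 0 called by DESeq2, and none of the members by either tool.

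Direction depends on what a library is scaled to, and the share of mitochondrial counts moved with MS023. Mitochondrial genes took 73.4% to 76.0% of counts in untreated cells, 64.9% to 66.1% after 4 days of MS023 and 58.7% to 59.6% after 7 days. Scaled to total counts, the median of all genes tested rose by 0.739 on the log2 scale at 4 days of MS023 and by 1.02 at 7 days. IFIH1 and DHX58 at 4 days were then at 2.18 and 1.49, which is 1.44 and 0.75 above that median. MAVS at 4 days turned from -0.10 to 0.65 and ADAR at 7 days from -0.07 to 0.94, and relative to the median they were at -0.09 and -0.08.

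The authors' deposited tables, made with another counting of the same study, compare each of the 14 treated groups with untreated cells. They list 7 of the 10 members (not ADAR, IFNB1 or IFNL1) and give no replicate values, and their fold changes look shrunken toward 0. In the authors' deposited table for MS023 at 4 days, 3 listed members were called, all higher, where 22.5% of the genes with an adjusted p were called. IFIH1 had a log2 fold change of 1.83 (standard error 0.51, adjusted p = 0.000231), DHX58 of 0.62 (0.34, adjusted p = 0.0438) and EIF2AK2 of 0.61 (0.11, adjusted p = 4.12e-07) in the authors' deposited table. Their mean normalised count for EIF2AK2 was 510, while the count table holds 95 to 311 counts per library. The EIF2AK2 call is thus in the authors' deposited table and not in the fit to the count table.

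In the authors' deposited tables EIF2AK2 was lower in 3 of the 5 groups with Dex for 3 h, at -0.29 with Dex alone, -0.32 after GSK591 for 7 days and -0.35 after MS023 for 7 days (adjusted p = 0.0401, 0.0174 and 0.00622). In the other two of the authors' deposited tables EIF2AK2 was at -0.21 for Dex with GSK591 and -0.11 for Dex with MS023 and did not pass (adjusted p = 0.155 and 0.53). TBK1 was lower in the authors' deposited tables with Dex and MS023 (-0.28), and with Dex for 3 h after 7 days of GSK591 (-0.54) or MS023 (-0.32). With Dex and MS023 the fit to the counts had the other sign for TBK1, 0.31 ± 0.45, with the high value in replicate 2 (edgeR adjusted p = 0.735). Without the 2 libraries that stand apart TBK1 was there at -0.74 (adjusted p = 0.33). MAVS was higher in 6 of the authors' deposited tables, by 0.25 to 0.32, namely Dex for 3 h, Dex with GSK591, MS023 at 2 and 7 days, and GSK591 for 7 days with Dex for 15 min or 3 h. DHX58 after Dex for 3 h was at 0.26 in the authors' deposited table (adjusted p = 0.401) and did not pass there, and IFIH1 after MS023 for 7 days with Dex for 15 min was at 0.23 (adjusted p = 0.444). The shares of all genes called in the authors' deposited tables were 3.93% for Dex at 15 min, 21.9% for Dex at 3 h, 21.7% for Dex with GSK591 and 19.8% for Dex with MS023. For GSK591 they were 14.7%, 26.8% and 23.8% at 2, 4 and 7 days and 23.5% and 34.2% with Dex for 15 min and 3 h. For MS023 they were 17.7% at 2 days, 22% at 7 days, and 24.4% and 30% with Dex for 15 min and 3 h.

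**Figure D4:**
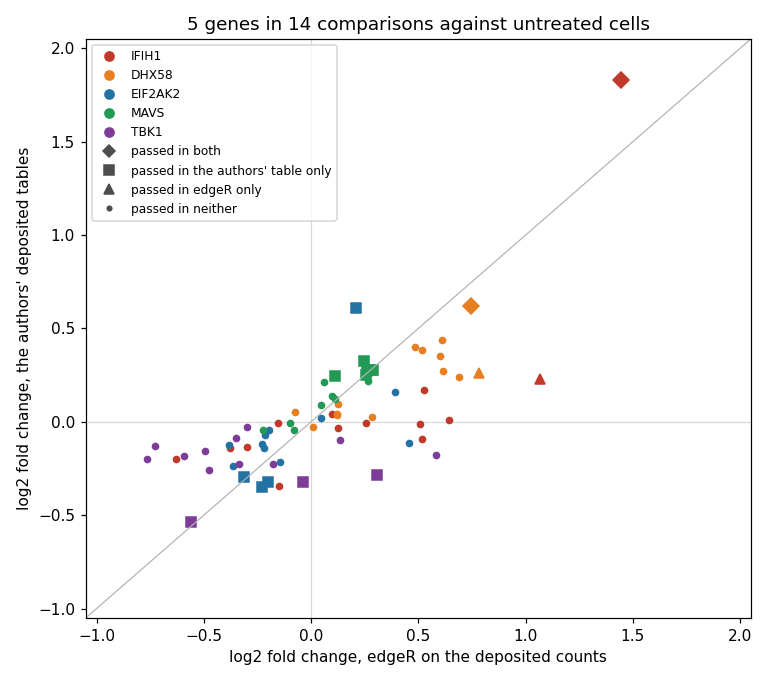
Log2 fold change of IFIH1, DHX58, EIF2AK2, MAVS and TBK1 in 14 comparisons with untreated cells, from edgeR on the deposited counts (x axis) and from the authors' deposited tables (y axis), with the line of equal values. Diamonds passed an adjusted p of 0.05 in both, and these are IFIH1 and DHX58 after 4 days of MS023. The squares, which passed only in the authors' tables, are EIF2AK2, MAVS and TBK1.

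The rest of the pathway was described with a list of 98 genes in 8 roles, of which 77 could be tested. After 4 days of MS023, 12 of the 77 were higher and 5 lower, with a median log2 fold change of 0.01 against 0.00 over all genes, of which 14.2% were called. Among 16 tested RNA sensors and effectors 6 were higher and 1 lower. OASL, an inhibitor of DNA sensing and partner of the helicase sensor RIGI, was at 11 and 8 counts in untreated cells and 174 and 185 at 4 days (log2 3.65 ± 0.33, edgeR adjusted p = 1.03e-11). OAS2, an oligoadenylate synthetase that double-stranded RNA activates, was at 8 and 0 counts untreated and 58 and 68 at 4 days (log2 3.36 ± 0.74). In untreated cells OAS2 lay below the minimum count of the filter in both libraries, and OASL lay close to it. OAS2 entered the test through groups with higher counts, so its call is a description. The fold of OASL also rests on few untreated counts. The other oligoadenylate synthetases, OAS1 (log2 1.40 ± 0.24) and OAS3 (log2 1.25 ± 0.14), also rose, and both lay below 0 after 7 days of MS023, without passing the test there.

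RIGI, the sister helicase of IFIH1, was at 26 and 46 counts in untreated cells and 65 and 65 after 4 days of MS023, a log2 fold change of 0.29 ± 0.27 that the test did not call (edgeR adjusted p = 0.543). Among 16 tested genes of interferon receptors and signalling 3 were higher and none lower. ISG15, a ubiquitin-like modifier, had a log2 fold change of 1.66 ± 0.28, IRF9, the DNA-binding partner of the STAT proteins, of 1.43 ± 0.25 and SOCS1, a feedback inhibitor, of 0.63 ± 0.19. Of the 7 transcription factors that act on interferon genes, IRF7 rose by 0.74 ± 0.13 and JUN fell by 1.42 ± 0.13. Of 19 adaptors, kinases and ubiquitin ligases TRIM25 rose by 0.36 ± 0.12, while TOMM70 fell by 0.58 ± 0.16 and IKBKB fell by 0.48 ± 0.15. DESeq2 called none of these 3 (adjusted p = 0.099, 0.0686 and 0.105), and TRIM25 was also lost with no filter on low counts (0.057).

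Under total-count scaling 52 of the 77 were higher and 1 lower at 4 days, and TOMM70, IKBKB, DHX9 and PPP1R15A changed sign, to 0.17, 0.27, 0.14 and 0.17. Relative to the median of all genes they were at -0.57, -0.47, -0.60 and -0.57. Of all genes, 49.2% were called under that scaling. Without the 2 libraries that stand apart, 13 of the pathway genes were higher and 9 lower, and DESeq2 called 9 higher and 3 lower. These 2 splits are not set against the share of all genes called in the same settings.

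The pathway genes moved differently at other times and with GSK591. At 2 days of MS023, 8 were higher and 6 lower, where 10.4% of all genes were called, with OASL at 3.31 ± 0.34, STING1, the adaptor of DNA sensing, at 1.53 ± 0.42 and ISG15 at 1.24 ± 0.29. The STING1 call was lost in DESeq2 (adjusted p = 0.0782). At 7 days 3 were higher and 4 lower, where 13.6% of all genes were called, and OASL was at 10 and 10 counts. Under total-count scaling the split was 39 higher and 0 lower at 2 days and 64 higher and 0 lower at 7 days, with 40.3% and 70.5% of all genes called. From 4 to 7 days of MS023, 2 of the 77 rose and 12 fell, where 9.04% of all genes were called. Total-count scaling gave 3 and 3, not set against the share of all genes called under it.

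With GSK591 the list had 1 higher and 5 lower genes at 2 days, then 3 higher and 10 lower at 4 days, then 6 higher and 8 lower at 7 days, where 5.64%, 17.2% and 13.2% of all genes were called. Total-count scaling gave 2 higher and 0 lower, 9 higher and 1 lower, and 3 higher and 1 lower at these times, not set against the share of all genes called under it. At 7 days of GSK591 NLRP1, an inflammasome sensor, was at 36 and 29 counts against 9 and 4 in untreated cells (log2 2.53 ± 0.47, edgeR adjusted p = 0.000105). IFI16, a DNA sensor, was at 26 and 21 counts against 7 and 8 (log2 1.87 ± 0.54), a call that neither DESeq2 (0.0577) nor total-count scaling (0.0853) kept. NLRP1 and IFI16 had fewer than 10 counts in each untreated library. They entered the test through groups with higher counts, so their calls are descriptions. The oligoadenylate synthetases fell, OAS1 by 0.99 ± 0.32 and OAS3 by 0.70 ± 0.17. With total-count scaling neither call held (0.107 for OAS1 and 0.0878 for OAS3), and DESeq2 gave 0.132 for OAS1. MS023 against GSK591 at 4 days, the direct test, gave 11 higher and 2 lower, where 6.03% of all genes were called. Exons of OAS1, ISG15, IRF9, TRIM25 and TOMM70 overlap those of another gene.

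**Figure D5:**
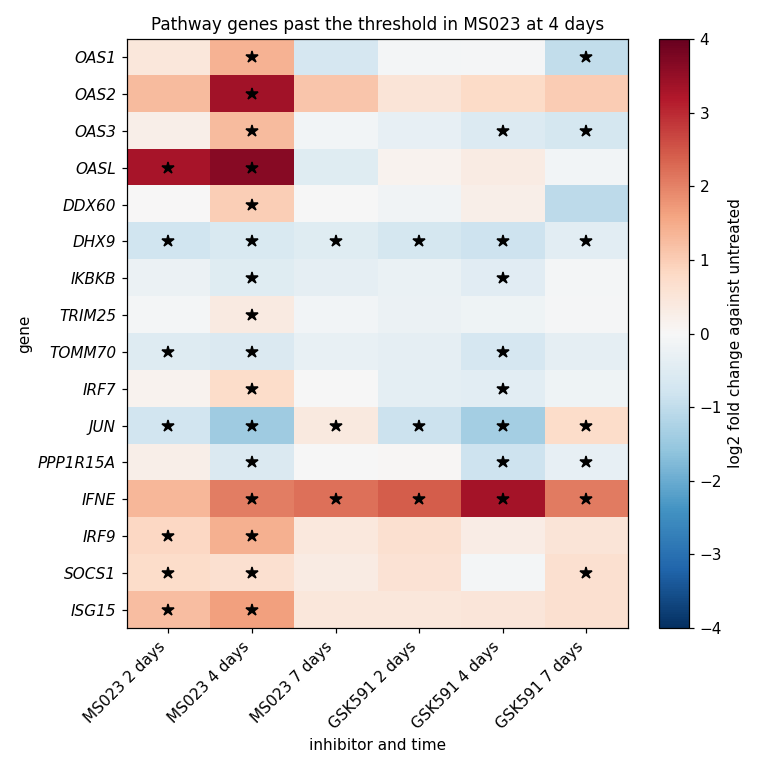
Log2 fold change against untreated cells (colour, red higher and blue lower) of 16 of the 17 pathway genes that passed the test after 4 days of MS023, in rows, over MS023 and GSK591 at 2, 4 and 7 days, in columns. A star marks an edgeR adjusted p below 0.05. OASL is at 3.31 and 3.65 at 2 and 4 days of MS023, with no star at 7 days.

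Among other interferon ligands, 3 of 19 had enough counts to test. IFNE and IFNA1 entered the test through the groups in which their counts were high, so their calls are descriptions. IFNE, an interferon of epithelia, was at 2 and 4 counts in untreated cells, 39 and 28 after 4 days of GSK591 (log2 3.32 ± 0.52, edgeR adjusted p = 3.92e-06) and 20 and 18 after 4 days of MS023 (log2 2.05 ± 0.57, edgeR adjusted p = 0.00984, and 0.0637 in DESeq2). IFNE lies inside the transcribed body of MIR31HG on the same strand, so its counts may be reads of that transcript. IFNA1 was at 5 and 2 counts untreated and at 21 and 14 after 4 days of GSK591 and 20 and 16 after 7 days (log2 2.17 ± 0.71 and 2.55 ± 0.70), values for which DESeq2 gave no adjusted p. IFNA1 and IFNA13 are near-identical, so the counting may have split their reads.

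After Dex for 3 h, 4 of the 77 pathway genes were higher and 10 lower, where 10.5% of all genes were called. Total-count scaling gave 2 higher and 2 lower, and leaving out the 2 libraries that stand apart gave 4 higher and 14 lower. Those splits are not set against the share of all genes called in the same settings. SOCS1 was highest among the called pathway genes at 1.52 ± 0.19, from 323 and 297 to 777 and 865 counts. OAS1 fell by 1.55 ± 0.34, IFNAR2, a chain of the interferon receptor, fell by 1.37 ± 0.43, JUN fell by 1.21 ± 0.13 and TBKBP1, a binding partner of TBK1, fell by 1.10 ± 0.29. With total-count scaling IFNAR2 (0.108) and TBKBP1 (0.102) did not pass, and DESeq2 gave 0.113 for IFNAR2. Exons of OAS1 and IFNAR2 overlap those of another gene.

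Genes with the pattern most like a member's were sought among 11114 genes whose mean reached 5 CPM, by Pearson's r of log2 mean CPM over the 15 groups. For IFIH1 these were ZNF8-ERVK3-1 (r = 0.883), SLC12A2 (0.880) and ZNF891 (0.865). For DHX58 they were HELZ2 (0.811), TMEM74B (0.801) and FZD1 (0.801), and for TLR3 they were ACOT1 (0.926), PPAN (0.907) and ZNF75A (0.903). The TLR3 pattern rests on 0 to 14 counts per library, with 0.01 CPM added before the log. Its r values thus lean on single counts and on that addition. Between members, r was 0.73 for EIF2AK2 with ADAR and 0.70 for EIF2AK2 with TBK1, 3 genes that share the high values of the 2 libraries that stand apart, and 0.21 for IFIH1 with DHX58. Without those libraries r was 0.60 for EIF2AK2 with ADAR and 0.39 for EIF2AK2 with TBK1. The points share libraries and depth, and these values carry no test.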

How the data were processed

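The starting point was the deposited tables of the PRO-seq libraries, with groups and replicate numbers from the sample labels. The authors counted reads per gene with featureCounts 2.0.1 on hg38, per the submitters' processing notes, and deposited whole-number counts without normalisation. The aligner, the feature type and the use of strand are not given in the sources used here. The authors also deposited 14 comparison tables of 28873 genes, which rest on another counting. Per the file headers they hold a mean signal (baseMean), a log2 fold change with its error, and p-values, all computed by the authors.

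For the count table, edgeR's quasi-likelihood test (version 4.0.16, with R 4.3.3 and limma 3.58.1) was used with TMM scaling, robust fitting, and 1 fit of all 15 groups that left 15 residual degrees of freedom. After filterByExpr (at least 10 counts, 15 in total) 22919 genes remained, over which the p-values of each of the 25 comparisons were adjusted (Benjamini-Hochberg). The printed error of a log2 fold change is its size divided by the root of its F statistic. Having 2 replicates a group, each test borrows its spread from the other groups. Total counts were 8441211 to 13069598 per library. Intervals and floors cover counting error only. Gene coordinates are from GENCODE 29 (GRCh38).

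Alternatives were DESeq2 size factors, total counts, no filter, DESeq2 1.42.0, the compared groups alone, a replicate block, no mitochondrial or ribosomal RNA genes, and each replicate left out. Leaving out the 2 libraries that stand apart was added after seeing the data. The members and lists were chosen with earlier results of these data known. Named pathway genes are at most 3 a role with the largest change among those called, and like-patterned genes are the 3 with the highest r. RIGI, OAS1, OAS3 and DHX9 at 4 days of MS023 and OASL at 7 days fall outside this rule, and their choice came after seeing their values. The result of 1 pathway gene is not reported here.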

Additional observations from a re-analysis of the deposited data

Results flagged for a closer look

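At 4 days IFIH1 and DHX58 differed between the 2 inhibitors by a direct test. The log2 difference, MS023 minus GSK591, was 1.60 for IFIH1 (4.48 and 5.06 against 2.02 and 1.10 CPM) and 0.74 for DHX58 (6.18 and 6.27 against 3.84 and 3.61 CPM). The DHX58 call was lost in DESeq2 (adjusted p = 0.218) and with no filter on low counts (edgeR adjusted p = 0.0636). Leaving out single libraries also ended calls of both genes, as given above.

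MAVS differed between times of the same inhibitor by a direct test. Its log2 difference was -0.39 from 2 to 4 days of MS023 and 0.35 from 4 to 7 days, with 67.8 and 69.8, then 50.9 and 54.4, then 62.6 and 72.0 CPM. Neither call held with no filter on low counts (edgeR adjusted p = 0.0953 and 0.0612) or under total-count scaling (0.673 and 0.0529). Leaving out single libraries also ended both calls in most cases, as given above.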

How the results depend on the processing

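Counts of the 7 tested members called moved with the setting. Under total-count scaling 1 was called for Dex with MS023, 4 for MS023 at 2 days, 5 each for MS023 at 4 and 7 days, at 7 days with Dex for 15 min or 3 h, and at 7 days against GSK591, 1 at 2 days against GSK591, and 0 from 2 to 4 or from 4 to 7 days of MS023. That scaling reversed MAVS at 4 days of MS023 to 0.65 and ADAR at 7 days to 0.94, and it moved the median of all genes by -0.173 to 1.07 over the 25 comparisons. Under it 40.3%, 49.2% and 70.5% of all genes were called at 2, 4 and 7 days of MS023 and 69.8% against GSK591 at 7 days, so these counts are not particular to the members. With no filter on low counts 0 were called for Dex at 3 h and between times of MS023. DESeq2 called 0 for Dex at 3 h, 1 for MS023 at 4 days, 0 at 7 days, 0 at 7 days with Dex for 15 min, and 1 at 4 days against GSK591. With the compared groups alone 1 was called for Dex with GSK591, 2 for MS023 at 2 days, 2 at 7 days with Dex for 15 min, 1 and 4 against GSK591 at 2 and 4 days, 3 from 2 to 4 days and 5 from 4 to 7 days. Without the 2 libraries that stand apart these were 2 for MS023 at 2 days, 1 against GSK591 at 2 days, 2 from 2 to 4 days and 4 from 4 to 7 days. DESeq2 size factors called 1 for GSK591 at 7 days with Dex for 15 min. The share of all genes called moved as well, for MS023 from 4 to 7 days from 9.04% to 17.8% with the compared groups alone and to 11.6% without the 2 libraries. The cause of these moves was not tested.

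Same-numbered replicates did not deviate together in most pairs of groups. Correlations over 105 pairs of groups ran from -0.45 to 0.49 with a median of 0.02, and 22 were over 0.1. The numbers were thus not taken to pair the samples, and pairing within some of the groups was not tested. A replicate block called 1 member, MAVS, for MS023 against GSK591 at 2 days (log2 0.37, adjusted p = 0.0462) and changed no other call of a member.

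With single replicates left out, the lone library of a group is assumed to vary like the other groups. Members called then ran from 0 to 0 for Dex at 3 h, MS023 at 7 days, MS023 at 7 days with Dex for 15 min, and 2 to 4 days of MS023, and from 0 to 1 for MS023 at 4 days, the same against GSK591, GSK591 at 7 days with Dex for 3 h, the same against GSK591 alone, MS023 against GSK591 at 7 days, and 4 to 7 days of MS023. They ran from 0 to 2 for Dex with MS023 and from 0 to 3 for it against Dex. Without GSK591 7 days replicate 2, DHX58 was called in 2 comparisons (log2 1.28 in each).

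Pathway genes called under total counts were 4 for Dex at 3 h, 2 and 4 for GSK591 at 2 and 7 days, and 39, 53 and 64 for MS023 at 2, 4 and 7 days. DESeq2 called 5 for Dex at 3 h, 8 and 5 for GSK591 at 4 and 7 days, and 9 and 3 for MS023 at 2 and 7 days. For MS023 at 7 days the compared groups alone gave 15, and leaving out the 2 libraries gave 12. None of these pathway counts is set against the share of all genes called in the same setting. That share moved too, so the counts are no result about the pathway genes. With single replicates left out the counts ran from 5 to 8 for Dex at 3 h, 2 to 5, 6 to 7 and 4 to 10 for GSK591 at 2, 4 and 7 days, and 5 to 8, 12 to 14 and 2 to 5 for MS023.

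A count of 0 allows up to 3 counts, so differences of IFNB1, at 0 in 28 of 30 libraries, were not detectable at this depth. ZBP1 and IFNL1 had counts in 15 and 21 libraries, at most 5 and 6 in any. They did not pass the filter on low counts, and no fold change was taken from them.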
